A study of Rattus norvegicus with 9 samples.

Results

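The genes described here are 10 hypoxia-inducible genes of the rat, Hif1a, Egln1, Egln3, Pdk1, Adm, Ndrg1, P4ha1, Vegfa, Bnip3 and Bnip3l, taken by gene name from a deposited expression table of 32792 genes. All 10 had 1 entry each. RNA came from cultured smooth muscle cells of the rat thoracic aorta, with 3 libraries in each of 3 groups. Cells of T_A were transfected to overexpress the lysosomal protease cathepsin D (CTSD) and were treated for 24 h with 200 µg/mL of advanced glycation end products (AGEs), proteins modified by sugar as in diabetes. Cells of NC_A carried the empty vector and had the same AGEs. Cells of NC_B carried the empty vector and had bovine serum albumin (BSA) instead, so all 9 libraries come from transfected cells. Neither the vector's promoter nor the source of each library as a culture of its own is stated, so the spread that the tests use may be technical.

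Cells sense oxygen through hypoxia-inducible factor (HIF), a pair of an oxygen-labile alpha subunit, such as the product of Hif1a, and a stable beta subunit, the product of Arnt. Where oxygen is plentiful, prolyl hydroxylases encoded by the Egln genes mark the alpha subunit for destruction. Where it is scarce, HIF binds short DNA elements with the core ACGTG or GCGTG near its target genes. The alpha subunit is set mostly by the stability of its protein, so the RNA level of Hif1a is no measure of HIF activity. Among the targets, Egln1 and Egln3 encode the oxygen sensors themselves, Pdk1 a kinase that switches off pyruvate dehydrogenase, and P4ha1 a catalytic subunit of the enzyme that hydroxylates collagen. Adm encodes the vasodilator peptide adrenomedullin, Vegfa an angiogenic growth factor, Ndrg1 a stress-induced protein, and Bnip3 and Bnip3l a pair of related receptors for the removal of mitochondria by autophagy.

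Promoter sequences are shown for 4 of the genes that were higher with AGEs, because the HIF core motif is found in their windows. Each runs from 250 bases before to 50 after the start of the RefSeq gene, 5′ to 3′ on the strand of the gene. Capitals mark ACGTG or GCGTG on either strand, and CACGTG is a match on both.
Egln1 promoter, GRCr8 chr19:69804632-69804931, minus strand: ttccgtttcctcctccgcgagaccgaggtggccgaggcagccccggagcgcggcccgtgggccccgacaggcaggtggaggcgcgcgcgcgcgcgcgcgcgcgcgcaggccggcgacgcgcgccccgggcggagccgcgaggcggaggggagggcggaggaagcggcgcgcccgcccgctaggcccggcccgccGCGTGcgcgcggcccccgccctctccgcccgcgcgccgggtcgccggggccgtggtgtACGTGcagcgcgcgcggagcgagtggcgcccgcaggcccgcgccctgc
Pdk1 promoter, GRCr8 chr3:77113264-77113563, plus strand: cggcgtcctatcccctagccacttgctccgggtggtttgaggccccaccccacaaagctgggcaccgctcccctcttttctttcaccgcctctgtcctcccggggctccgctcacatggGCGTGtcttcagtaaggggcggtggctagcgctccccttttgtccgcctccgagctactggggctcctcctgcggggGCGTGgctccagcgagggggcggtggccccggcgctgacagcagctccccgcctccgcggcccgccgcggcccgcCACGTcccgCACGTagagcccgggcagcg
P4ha1 promoter, GRCr8 chr20:27844796-27845095, plus strand: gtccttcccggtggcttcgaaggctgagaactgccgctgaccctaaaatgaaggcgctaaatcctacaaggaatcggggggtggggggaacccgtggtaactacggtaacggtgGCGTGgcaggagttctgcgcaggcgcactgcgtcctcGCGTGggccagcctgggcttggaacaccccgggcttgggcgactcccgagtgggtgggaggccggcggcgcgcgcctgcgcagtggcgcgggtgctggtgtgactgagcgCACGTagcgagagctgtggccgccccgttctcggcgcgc
Bnip3 promoter, GRCr8 chr1:203154913-203155212, minus strand: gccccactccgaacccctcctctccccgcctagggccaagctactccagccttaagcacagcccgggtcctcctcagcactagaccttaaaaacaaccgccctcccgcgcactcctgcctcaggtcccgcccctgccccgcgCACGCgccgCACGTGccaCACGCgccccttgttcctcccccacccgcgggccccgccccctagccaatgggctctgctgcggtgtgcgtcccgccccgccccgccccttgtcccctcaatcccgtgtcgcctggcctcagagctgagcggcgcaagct

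The RefSeq promoter table (GRCr8) held 8 of the 10 genes by symbol. Ndrg1 and Bnip3l had no entry. Of the 8, 5 had at least 1 core motif in this window: Bnip3 and Pdk1 had 4 matches each, Hif1a and P4ha1 had 3 each and Egln1 had 2. Adm, Egln3 and Vegfa (in both of its entries) had 0. The motif is short and common. At least 1 match stood in 41.6% of all 33469 promoters of the table and in 63.6% of the 6867 promoters of genes tested here, and at least 2 stood in 34.9% of those 6867. A match is a string of letters and not a measured binding site.

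The libraries held 4492416 to 5341647 fragments assigned to genes. Expression is given as FPKM, fragments scaled by gene model length and by library total, as the authors computed it. Ctsd, the overexpressed gene, stood at 199 ± 3.88 FPKM in T_A, 13.9 ± 0.808 in NC_A and 13.0 ± 1.45 in NC_B (SD, n = 3 each). Of 10 smooth muscle markers, 4 (Acta2, Tagln, Smtn and Tpm2) passed the filter on expression, and the defining genes Myh11 and Cnn1 had 24 and 37 fragments over all libraries. The summed level of the smooth muscle list was 196 to 200 FPKM in T_A, 114.5 to 123.1 in NC_A and 135 to 154 in NC_B. Most of this sum was Tpm2, at 132 FPKM in T_A, 80.2 in NC_A and 106 in NC_B. With CTSD under AGEs 3 of the 4 tested markers rose, where 30.7% of all tested genes passed, 18.6% as higher. With AGEs against BSA 1 of the 4 passed, Tpm2, which was lower (log2 fold change -0.40, limma adjusted p = 0.00174). In that comparison 15.0% of all tested genes passed, 8.92% as lower. The part of these markers in the results below was not tested. Endothelial markers, which would bring their own hypoxia genes, summed to at most 0.136 FPKM in any library, with 4 of 7 matched genes at 0. Fibroblast markers summed to 1.88 to 2.71 FPKM and macrophage markers to 0.143 to 1.76 FPKM, with 5 of 7 macrophage genes at 0, in ranges that overlapped between groups.

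Vegfa was the highest of the genes and Egln3 was near 0. Over the 9 libraries Vegfa averaged 75.6 FPKM, Egln1 66.1, P4ha1 44.6, Bnip3 42.5, Bnip3l 34.4, Hif1a 31.3, Pdk1 11.7, Adm 8.82, Ndrg1 7.77 and Egln3 0.0635. FPKM is scaled by gene model length, so the order depends on the deposited models, and a trend with length remained between libraries (below). Neighbours in this order overlapped over the libraries for each pair but 2, Hif1a above Pdk1 and Ndrg1 above Egln3. The order itself moved with the groups: Egln1 and Vegfa overlapped in both groups with AGEs, while with BSA every Egln1 value lay below every Vegfa value. The Egln1 model is 669 bases long, the shortest of the 10, and Hif1a at 3214 bases is the longest.

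**Figure D1:**
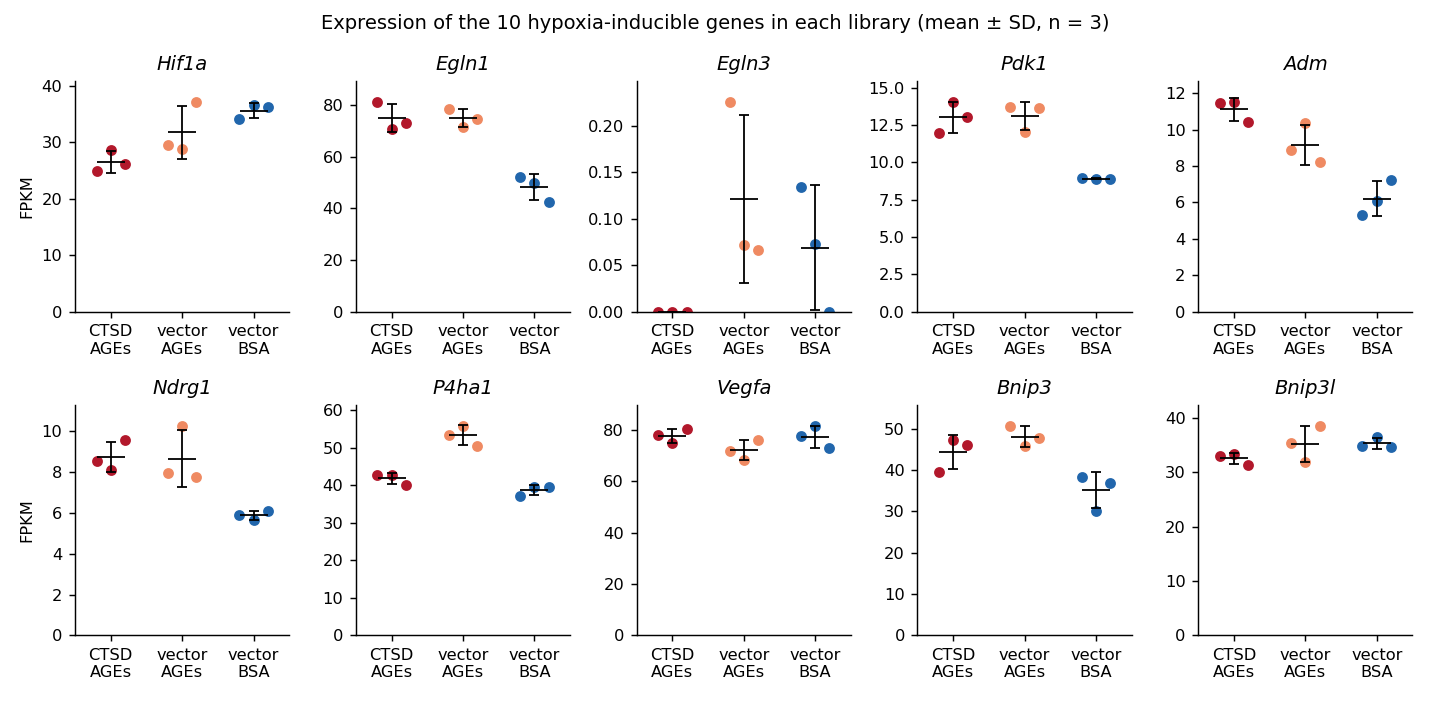
Expression of each of the 10 genes in FPKM (vertical axes, from 0), with 1 point per library and the mean ± SD (n = 3) in black, in CTSD cells with AGEs, empty-vector cells with AGEs and empty-vector cells with BSA. Egln1, Pdk1, Adm, Ndrg1, P4ha1 and Bnip3 lie higher in empty-vector cells with AGEs than in those with BSA, and P4ha1 lies lower again in CTSD cells.

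The comparison of empty-vector cells with AGEs against empty-vector cells with BSA asks what AGEs do to expression. Of the 10 genes 9 could be tested, and 6 of them rose with AGEs, by 1.37- to 1.55-fold: the oxygen sensor gene Egln1, the metabolic kinase gene Pdk1, the collagen hydroxylase gene P4ha1, the mitophagy receptor gene Bnip3, Adm and Ndrg1. The other 3 did not pass the limma test: Hif1a itself stood at -0.17 on the log2 scale (SE 0.10, adjusted p = 0.291), Vegfa at -0.10 and Bnip3l near 0. Over all 8532 tested genes 15.0% passed an adjusted p of 0.05, and 6.05% passed as higher and 8.92% as lower. Of the genes that passed 40.4% were higher, against 58.9% with median-of-ratios scaling. The median log2 fold change was 0.45 over the 9 genes and -0.06 over all tested genes. The genes were named with earlier results of these data in view, so these counts describe them and do not test the group. In bulk RNA, fewer cells that express a gene and less RNA per cell cannot be told apart.

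Egln1 (ENSRNOG00000019773, chromosome 19, 57662278 to 57699113 as deposited) stood at 78.6, 71.6 and 74.7 FPKM in NC_A, against 52.2, 49.9 and 42.6 in NC_B. The groups did not overlap, and each NC_A library lay above the highest NC_B library. Of all tested genes 32.5% had groups that did not overlap (12.8% higher and 19.8% lower). The log2 fold change was 0.63 (SE 0.08, limma adjusted p = 0.00125), the largest of the 9, and it passed under all 18 other settings (0.54 to 0.69). The value rests on 128 to 284 fragments a library. Counting alone gives a coefficient of variation of 6.32% in NC_A and 8.02% in NC_B, near the 4.68% and 10.4% observed.

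Pdk1 (ENSRNOG00000001517, chromosome 3, 58530870 to 58558027) stood at 13.7, 12.0 and 13.6 FPKM in NC_A, against 8.97, 8.87 and 8.88 in NC_B. The 3 BSA libraries were nearly equal, with an SD of 0.0553 FPKM, less than the counting error of their 63 to 75 fragments. The log2 fold change was 0.51 (SE 0.10, adjusted p = 0.00682), and it passed under all 18 settings.

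P4ha1 (ENSRNOG00000050655, chromosome 20, 28920616 to 28971966) stood at 53.4, 55.8 and 50.5 FPKM in NC_A, against 37.1, 39.5 and 39.5 in NC_B. Its log2 fold change of 0.45 was smaller than that of Egln1 or Pdk1 and had a smaller error (SE 0.06, adjusted p = 0.00152). With 376 to 586 fragments a library it was among the better measured of the genes that rose, and it passed under all 18 settings.

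Bnip3 (ENSRNOG00000017243, chromosome 1, 211248098 to 211265282) stood at 50.7, 45.7 and 47.9 FPKM in NC_A, against 38.3, 30.1 and 36.9 in NC_B. The log2 fold change was 0.45 (SE 0.10, adjusted p = 0.0138). It passed under 17 of 18 settings, and without NC_A replicate 1 the adjusted p was 0.055. Its relative Bnip3l (ENSRNOG00000009820, chromosome 15, 43643897 to 43667029), which also encodes a mitophagy receptor, stood at 35.3, 32.0 and 38.6 FPKM in NC_A and 34.8, 36.4 and 34.7 in NC_B. The interval of its log2 fold change ran from -0.17 to 0.16 (adjusted p = 0.978). The ratio of Bnip3 to Bnip3l FPKM within a library was 1.37 ± 0.112 in NC_A and 0.997 ± 0.148 in NC_B (SD, n = 3 each). The ratios did not overlap, and an exact two-sided permutation test gave p = 0.1, the smallest that 3 against 3 libraries allow. The models of Bnip3 and Bnip3l have 923 and 3199 bases, and the ratio was not corrected for the trend with length described below.

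Adm (ENSRNOG00000027030, chromosome 1, 175445088 to 175447259) and Ndrg1 (ENSRNOG00000007393, chromosome 7, 107734323 to 107775714) passed on few fragments, 39 to 83 and 35 to 65 a library. Adm stood at 8.86, 10.3 and 8.23 FPKM in NC_A, against 5.31, 6.09 and 7.22 in NC_B, 0.50 on the log2 scale (SE 0.13, adjusted p = 0.0286). Ndrg1 stood at 7.97, 10.3 and 7.77 FPKM in NC_A, against 5.92, 5.65 and 6.10 in NC_B, 0.48 on the log2 scale (SE 0.13, adjusted p = 0.0297; 0.051 with replicate as a block). Neither pair of groups overlapped, but Adm passed under 13 and Ndrg1 under 10 of 18 settings. Without NC_A replicate 1 or 2, or without NC_B replicate 1 or 2, neither passed, and Ndrg1 did not pass without NC_B replicate 3 (adjusted p 0.053 to 0.0972 in these fits).

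Vegfa (ENSRNOG00000019598, chromosome 9, 17340341 to 17355681), the gene with the most fragments of the 10, at 945 to 1182 a library, stood at 71.7, 68.3 and 75.9 FPKM in NC_A and 77.4, 81.5 and 72.9 in NC_B. The groups overlapped, and the interval of the log2 fold change, -0.24 to 0.03, does not reach the rises of the 6 genes above (adjusted p = 0.295). Hif1a (ENSRNOG00000008292, chromosome 6, 96810907 to 96856052) stood at 29.4, 28.7 and 37.1 FPKM in NC_A and 34.0, 36.5 and 36.2 in NC_B. Replicate 3 of NC_A was apart from the other libraries of its group and lay above every BSA library. Without it the log2 fold change of Hif1a was -0.28 (adjusted p = 0.0372), against -0.17 with it.

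Egln3 (ENSRNOG00000005053, chromosome 6, 75050329 to 75075795), an oxygen sensor gene that hypoxia induces in many cell types, had 8 fragments over all libraries and could not be tested. It was listed at 0 FPKM in all 3 T_A libraries, at 0.226, 0.0717 and 0.0665 in NC_A, which is 3, 1 and 1 fragments, and at 0.134, 0.0732 and 0 in NC_B, which is 2, 1 and 0. A difference between groups was not detectable at this depth. There, 3 fragments of a 1-kilobase gene are worth 0.562 to 0.668 FPKM, and those of the 2817-base Egln3 model were 0.226 FPKM in NC_A replicate 1.

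**Figure D2:**
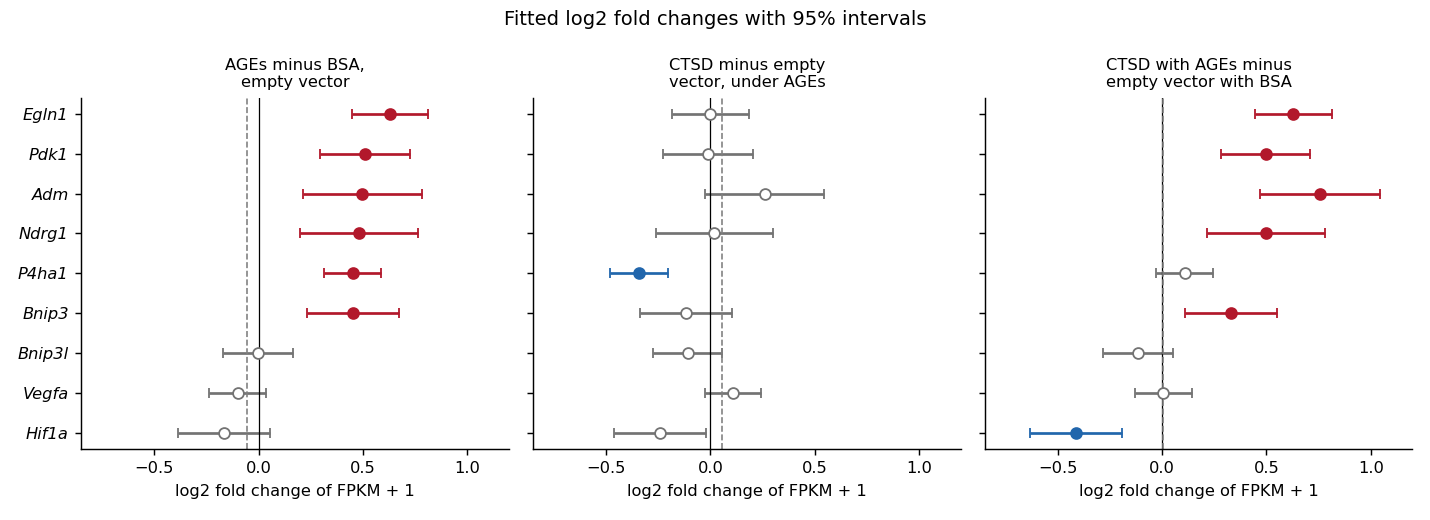
Fitted log2 fold changes of the 9 tested genes (horizontal axes, log2 of FPKM + 1) with 95% intervals in 3 comparisons. Filled points passed an adjusted p of 0.05 (red higher, blue lower), open points did not, and the dashed line is the median of all 8532 tested genes. The 6 red points of the left panel lie between 0.45 and 0.63, and P4ha1 is the filled point of the middle panel.

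The 6 genes that rose had gene models of 669 to 2121 bases, while those of Vegfa, Bnip3l and Hif1a had 2884 to 3214. Across all tested genes, fold changes with AGEs followed model length (Spearman rho -0.16 over 8532 genes, a description, since genes are not independent replicates). Genes called higher had a median model of 1823 bases and genes called lower 2452. A trend with length also stood between libraries of 1 group, with a rho of -0.27 for NC_A replicate 2 minus replicate 3. With the length trend removed from each library, the same 6 genes passed, Egln1 at 0.66, P4ha1 at 0.49, Pdk1 at 0.53, Adm at 0.52, Ndrg1 at 0.50 and Bnip3 at 0.47. Hif1a was then at -0.08 (adjusted p = 0.598), Vegfa at -0.03 (adjusted p = 0.8) and Bnip3l at 0.08 (adjusted p = 0.459). The 6 also passed with replicate as a block beside the length correction (adjusted p 0.00146 to 0.0386).

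**Figure D3:**
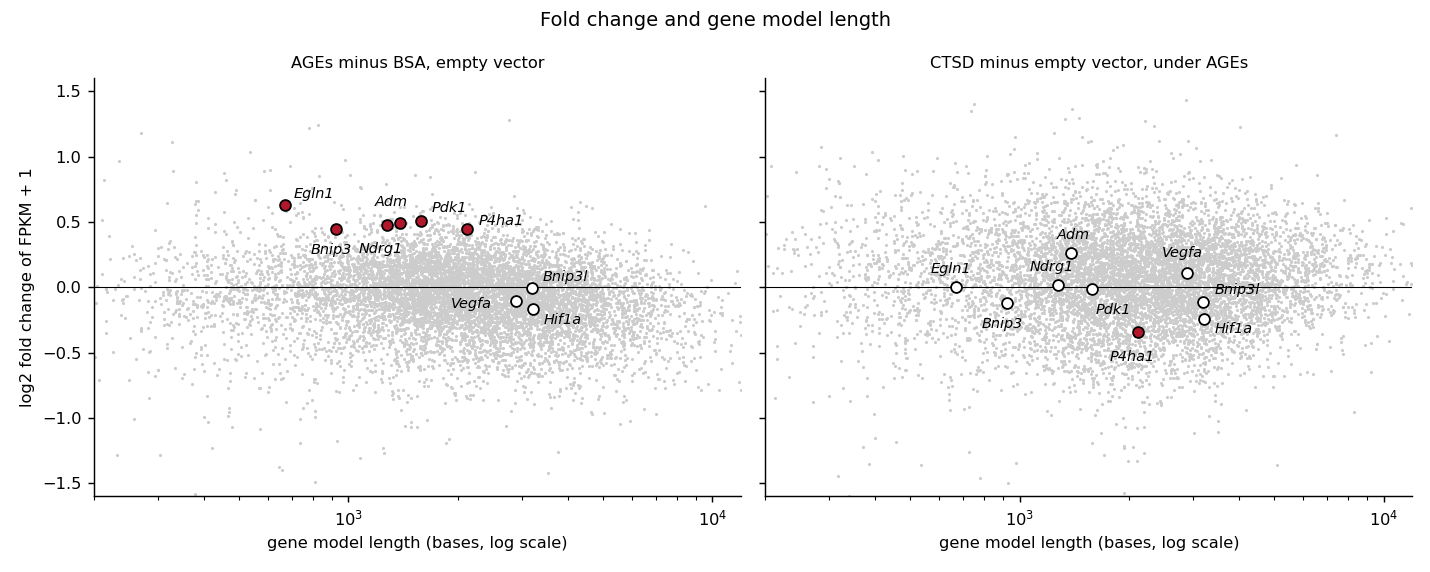
Log2 fold change of FPKM + 1 (vertical axes) against gene model length in bases (horizontal, log scale), with all tested genes in grey and the 9 tested hypoxia-inducible genes as circles, filled where they passed. Points outside the axes are not drawn. The genes that rose with AGEs have models of 669 to 2121 bases, and the 3 open circles of the left panel are the longest of the 9.

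The comparison of CTSD cells with empty-vector cells, both with AGEs, asks what cathepsin D does under AGEs. P4ha1 fell with CTSD, to 0.785 of its level in empty-vector cells, and it was the 1 gene of the 9 to pass, where 30.7% of all tested genes did (18.6% higher and 12.0% lower). Of the genes that passed 60.8% were higher, against 49.0% with median-of-ratios scaling. The other 5 genes that were higher with AGEs did not pass, with log2 fold changes from -0.12 for Bnip3 to 0.26 for Adm. The median was -0.01 over the 9 genes and 0.05 over all tested genes. This comparison shares the NC_A libraries with the one above, so the values of both are not independent.

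P4ha1 stood at 42.6, 42.6 and 40.04 FPKM in T_A, against the 53.4, 55.8 and 50.5 of NC_A. Every T_A library lay below every NC_A library, where 43.9% of tested genes had groups that did not overlap, 26.2% higher and 17.7% lower. The log2 fold change was -0.34 (SE 0.06, limma adjusted p = 0.00209), and it passed under all 18 settings (-0.40 to -0.31). Set against the BSA group, T_A lay at 0.11 log2 units (interval -0.03 to 0.25, adjusted p = 0.208), with every T_A library above every BSA library, where 48.8% of tested genes had groups that did not overlap in that comparison (24.0% higher and 24.8% lower).

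Egln1 stood at 81.2, 70.7 and 73.1 FPKM in T_A, a mean of 75.0 ± 5.48 beside 74.9 ± 3.51 in NC_A. The interval of the log2 fold change ran from -0.18 to 0.18 (adjusted p = 0.997), so a fall the size of its rise with AGEs lies outside it. Pdk1 stood at 12.0, 14.0 and 13.0 FPKM in T_A, beside 13.7, 12.0 and 13.6 in NC_A (log2 fold change -0.01, interval -0.23 to 0.20, adjusted p = 0.944). Ndrg1 stood at 8.53, 8.13 and 9.57 FPKM in T_A, where the interval was wider (-0.26 to 0.30, adjusted p = 0.936). For these 3 genes the T_A libraries overlapped those of NC_A and lay above every BSA library.

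Bnip3 stood at 39.6, 47.4 and 46.1 FPKM in T_A, a mean of 44.3 ± 4.19 beside 48.1 ± 2.51 in NC_A (log2 fold change -0.12, interval -0.34 to 0.10, adjusted p = 0.413). Its ratio to Bnip3l was 1.36 ± 0.145 in T_A and 1.37 ± 0.112 in NC_A (exact two-sided permutation p = 0.8). Bnip3l stood at 33.0, 33.3 and 31.3 FPKM in T_A (log2 fold change -0.11, interval -0.28 to 0.06, adjusted p = 0.309). Adm stood at 11.4, 11.5 and 10.4 FPKM in T_A, above every NC_A library, with a log2 fold change of 0.26 (interval -0.03 to 0.55, adjusted p = 0.158). Its lowest T_A value, 10.39, lay close to the highest of NC_A, 10.34, and 26.2% of all tested genes were higher without overlap. Vegfa stood at 77.9, 74.7 and 80.2 FPKM in T_A, a log2 fold change of 0.11 (interval -0.03 to 0.24, adjusted p = 0.212).

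Hif1a stood at 24.8, 28.6 and 26.2 FPKM in T_A, below every NC_A library (29.4, 28.7 and 37.1). The highest T_A value, 28.63, lay close to the lowest of NC_A, 28.73. Of all tested genes 17.7% were lower without overlap in this comparison. The difference between the groups did not pass the test as fitted (log2 fold change -0.24, SE 0.10, adjusted p = 0.0899). It passed with median-of-ratios scaling (-0.30, adjusted p = 0.0401), quantile normalization (-0.29, adjusted p = 0.0407) and the length trend removed (-0.28, adjusted p = 0.0314). Without NC_A replicate 3, the library in which Hif1a was highest, the value was -0.13 (adjusted p = 0.267).

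CTSD cells with AGEs were also set against empty-vector cells with BSA, which differ in both the transgene and the treatment, so the effect of either cannot be told apart in this comparison. Of the 9 genes 5 were higher and 1 was lower, where 32.6% of all tested genes passed (16.3% higher and 16.3% lower). Adm had the largest difference, with 11.1 ± 0.629 FPKM in T_A and 6.21 ± 0.96 in NC_B, a 1.79-fold difference (log2 fold change 0.76, SE 0.13, limma adjusted p = 0.00173). Egln1 was at 0.63 (adjusted p = 0.000449), Pdk1 at 0.50 (adjusted p = 0.00353), Ndrg1 at 0.50 (adjusted p = 0.0133; 0.0517 without T_A replicate 3) and Bnip3 at 0.33 (adjusted p = 0.0273). Bnip3 did not pass with the length trend removed (0.29, adjusted p = 0.0561), nor without T_A replicate 2 (0.0928), T_A replicate 3 (0.0843) or NC_B replicate 2 (0.0874). Hif1a fell to 26.5 ± 1.94 FPKM in T_A, against 35.6 ± 1.33 in NC_B, a difference of -0.41 on the log2 scale (SE 0.10, adjusted p = 0.0106) that passed under all 18 settings. These values are RNA levels, and protein was not measured here.

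**Figure D4:**
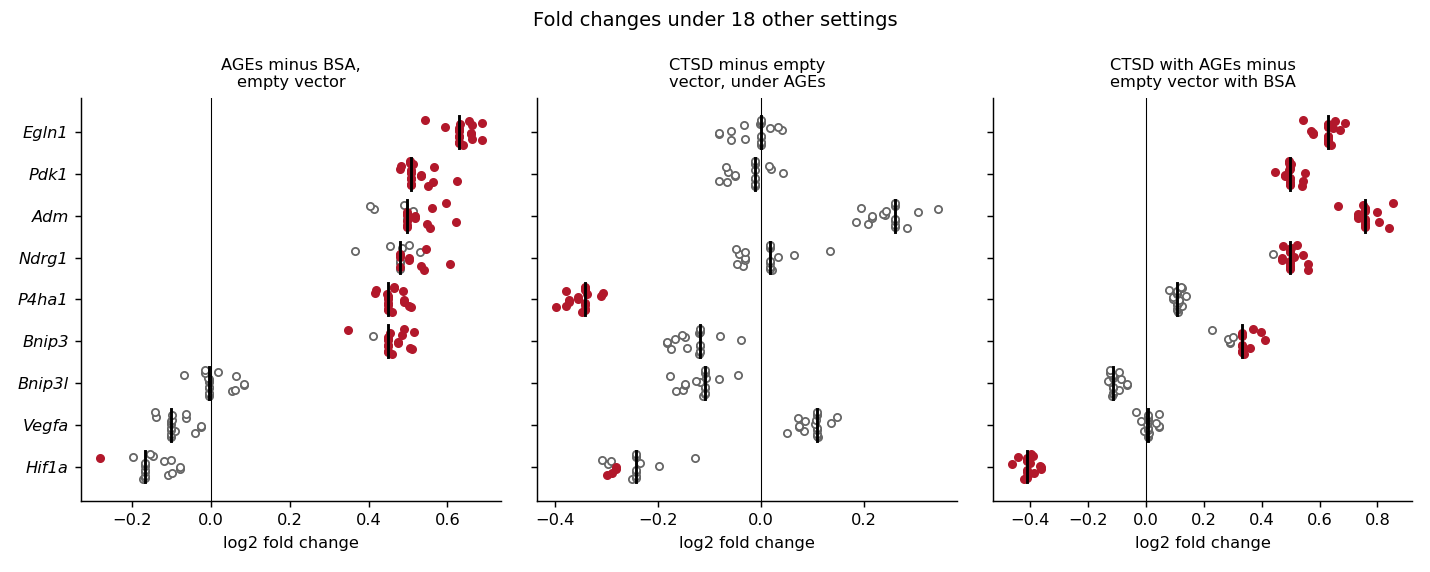
Log2 fold changes (horizontal axes) of the 9 tested genes under 18 other settings, each a point, filled where the gene passed an adjusted p of 0.05, with the value as reported as a black line. Egln1, Pdk1 and P4ha1 are filled throughout in the left panel, while Adm and Ndrg1 are filled in 13 and 10 of 18 settings.

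Other genes of the pathway were read from lists written from general knowledge. Among HIF subunits, oxygen sensors and genes of HIF turnover other than the 10, 14 of 16 could be tested. With AGEs 1 passed and was lower, Ep300, a coactivator that HIF recruits, at 16.6 ± 1.90 FPKM in NC_A and 21.8 ± 2.45 in NC_B (log2 fold change -0.37, limma adjusted p = 0.0421), which did not pass under 13 of 18 other settings. The 14 had a median of -0.18, and 7.14% of them passed, beside the 15.0% of all tested genes. The genes of the other HIF alpha subunits, Epas1 and Hif3a, were listed at 0 in every library. With CTSD under AGEs 4 passed, each higher: Elob (0.44, adjusted p = 0.0128), a subunit of the ligase that degrades HIF alpha, the oxygen sensor gene Egln2 (0.37, adjusted p = 0.0191), Siah2 (0.24, adjusted p = 0.0264) and Arnt (0.24, adjusted p = 0.019). That is 28.6% of the 14, near the 30.7% of all tested genes. Elob did not pass under 1, Egln2 under 3, Siah2 under 7 and Arnt under 6 of 18 settings. Arnt, the HIF beta subunit gene, is named outside the naming rule and stood at 51.9 ± 1.65 FPKM in T_A and 43.8 ± 2.71 in NC_A. Egln2 averaged 22.2 FPKM in T_A, 17.0 in NC_A and 16.3 in NC_B, and its log2 fold change with AGEs was 0.06 (adjusted p = 0.725), beside the 0.63 of Egln1.

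Of 38 other HIF target genes 29 could be tested, and with AGEs 1 rose and 3 fell, with a median of -0.03, near that of all genes. The riser was the glucose transporter gene Slc2a1, at 129 ± 1.40 FPKM in NC_A and 95.3 ± 3.45 in NC_B (0.43, adjusted p = 0.000523). Rbpj, the nuclear effector of Notch, fell (-0.75, adjusted p = 0.0165; not passed under 4 of 18 settings). The collagen crosslinking gene Loxl2 was lower (-0.57, adjusted p = 0.0352), but it lost its call in the fit with a replicate block (adjusted p = 0.0573) and under 10 of 17 settings in all. The MYC antagonist gene Mxi1 (-0.22, adjusted p = 0.0391) was the other call and is named outside the naming rule, after its value was seen. Mxi1 lost its call in the blocked fit (adjusted p = 0.0577) and under 13 of 18 settings in all. Glycolytic targets with many fragments, such as Pgk1 at 2785 ± 161 FPKM in NC_A and 2896 ± 49.3 in NC_B, did not pass (-0.06, adjusted p = 0.401). The share of called genes in this list, 13.8%, was near the 15.0% of all genes.

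With CTSD under AGEs 4 of these 29 targets rose and 2 fell, with a median of 0.11. The share that passed, 20.7%, was below the 30.7% of all tested genes. Loxl2 rose to 3.27 ± 0.42 FPKM in T_A, against 1.25 ± 0.22 in NC_A (0.92, adjusted p = 0.00141), and Mif, a cytokine gene, to 1044 ± 60.4 FPKM, against 727 ± 65.7 (0.52, adjusted p = 0.000232). Jmjd6, which encodes an oxygenase, fell (-0.37, adjusted p = 0.0301; not passed under 6 of 18 settings). Named outside the rule, Slc2a1 fell to 109 ± 4.66 FPKM in T_A (-0.24, adjusted p = 0.00384), and the lysyl hydroxylase gene Plod1 (0.34) and the glycogen synthase gene Gys1 (0.32) rose, Gys1 without passing under 12 of 18 settings. Slc2a1, like P4ha1, was thus higher with AGEs and lower with CTSD than with the empty vector under AGEs. When T_A was set against BSA, Slc2a1 was still higher (0.19, limma adjusted p = 0.0137) and P4ha1 did not pass (0.11, limma adjusted p = 0.208). The interval of P4ha1, -0.03 to 0.25, holds the value of Slc2a1, and a difference between the 2 genes was not tested.

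**Figure D5:**
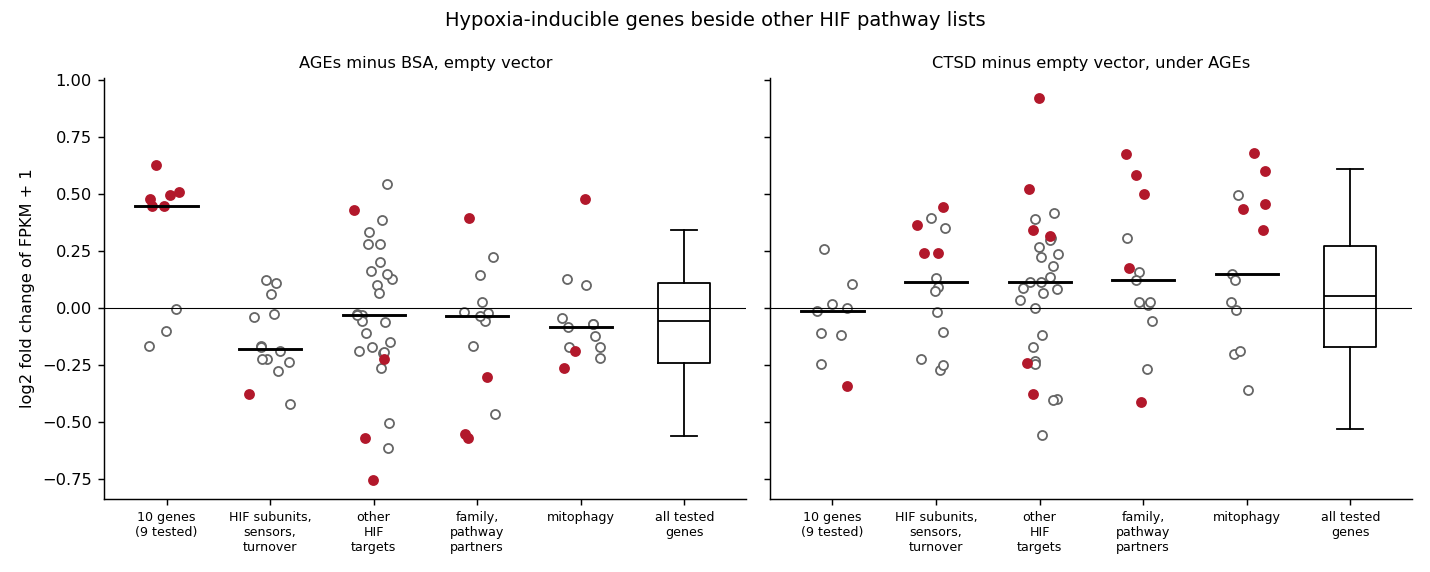
Log2 fold changes of FPKM + 1 (vertical axis) of the tested hypoxia-inducible genes and of 4 other lists without them, each point a gene, filled where it passed and with the list's median as a bar, beside a box of all 8532 tested genes (median and quartiles, whiskers from the 5th to the 95th percentile). In the left panel the median of the 9 genes is 0.45 and those of the other lists lie between -0.18 and -0.03.

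Relatives and partners of the 10 genes were read gene by gene, and no member of a family was tested against another. Of 25 such genes 13 could be tested, and with AGEs 1 rose and 3 fell, 30.8% beside the 15.0% of all tested genes. With AGEs Pdk3 rose beside Pdk1, at 73.5 ± 6.48 FPKM in NC_A and 55.8 ± 5.93 in NC_B (0.39, adjusted p = 0.0141), while Pdk2 was at -0.06 (adjusted p = 0.572) and Pdk4 at 0.23 (adjusted p = 0.381). The pyruvate dehydrogenase phosphatase gene Pdp1, whose product opposes these kinases, fell (-0.57, adjusted p = 0.0347). P4ha3, the other tested alpha subunit of the collagen hydroxylase, fell with AGEs (-0.55, adjusted p = 0.0293), the opposite sign to P4ha1. Pdp1 did not pass under 8 of 17 settings and P4ha3 under 7 of 18, and Pdk3 did not pass without NC_A replicate 1 (adjusted p = 0.0575) or 2 (0.0505). Vegfb fell too and is named here after its value was seen (-0.30, adjusted p = 0.0302; not passed under 7 of 18 settings), while Vegfc was at -0.02 (adjusted p = 0.892).

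With CTSD under AGEs 4 of these 13 rose and 1 fell, 38.5% beside the 30.7% of all tested genes. Pdk2 rose to 74.3 ± 1.09 FPKM in T_A, against 49.4 ± 3.01 in NC_A (0.58, adjusted p = 8.87e-05), beside Pdk1 and Pdk3 at -0.01 and 0.02. P4ha3 rose (0.68, adjusted p = 0.00515) where P4ha1 fell, and their shared beta subunit gene P4hb, named outside the rule, was higher as well (0.18, adjusted p = 0.0382; 0.0529 in the blocked fit, and not passed under 10 of 18 settings in all). Vegfb rose to 68.6 ± 2.65 FPKM, against 48.1 ± 3.01 (0.50, adjusted p = 0.000963). Pdha1, a subunit of pyruvate dehydrogenase and so of the target of the Pdk1 kinase, fell (-0.41, adjusted p = 0.00118), also named outside the rule. Among receptors for VEGF, Kdr was listed at 0 and Flt1 had 142 fragments over all libraries, while the coreceptor genes Nrp1 and Nrp2 were expressed and did not pass. Nrp1 stood at 28.1 ± 1.40 FPKM in T_A, 27.5 ± 0.449 in NC_A and 28.2 ± 1.26 in NC_B, and Nrp2 at 7.19 ± 1.12 FPKM in T_A, 6.56 ± 1.41 in NC_A and 9.33 ± 0.702 in NC_B. Calcrl, the adrenomedullin receptor gene, had 13 fragments over all libraries, and its partners Ramp1, Ramp2 and Ramp3 were listed at 0.

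Of 17 listed mitophagy receptors and adaptors other than Bnip3 and Bnip3l, 13 could be tested. With AGEs 1 rose and 2 fell, which is 23.1% beside the 15.0% of all tested genes. The adaptor gene Sqstm1 rose beside Bnip3 (0.48, adjusted p = 0.00196), and the ATG8 family genes Gabarapl1 (-0.26, adjusted p = 0.0285) and Gabarap (-0.19, adjusted p = 0.00665) fell. Gabarapl1 did not pass under 5 of 18 settings, and Gabarap did not pass with median-of-ratios scaling (adjusted p = 0.0578). With CTSD under AGEs 5 of 13 passed, each higher, with a median of 0.15, which is 38.5% beside the 30.7% of all tested genes. Gabarapl1 rose to 118 ± 1.93 FPKM in T_A, against 73.3 ± 6.80 in NC_A (0.68, adjusted p = 6.64e-05), Map1lc3a was at 0.60 (adjusted p = 0.00107) and the receptor gene Fkbp8 at 0.46 (adjusted p = 4.05e-05). Gabarap (0.44) and Gabarapl2 (0.34), named outside the rule, were the other calls. Bnip3 and Bnip3l, at -0.12 and -0.11, were not among the genes that rose.

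For 3 of the genes the most similar profiles over the 9 libraries were looked up among 5877 other genes with a mean of at least 5 FPKM, by Pearson's r of log2(FPKM + 1). The libraries fall into 3 groups, so these values are a description of profiles. Hif1a was most like Cnot6 (r 0.99, Spearman's rho 0.97), Ddr2 (0.98 and 0.87) and Fam120a (0.97 and 0.88). Like Hif1a, Cnot6 was lowest in T_A, at 23.6 ± 1.56 FPKM, with 30.2 ± 7.73 in NC_A and 35.3 ± 2.66 in NC_B. Egln1 was most like Edc4 (r 0.98, rho 0.93), Jade2 (0.97 and 0.95) and Clta (0.97 and 0.87), each near the same level in both groups with AGEs and lower with BSA. Jade2 was at 29.0 ± 1.47 FPKM in T_A, 30.4 ± 2.68 in NC_A and 19.5 ± 0.615 in NC_B. Bnip3 was most like Actg1 (r 0.97, rho 0.97), Cnot11 (0.95 and 0.93) and Snrpa1 (0.93 and 0.82). None of these 9 genes is on the lists above.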

How the data were processed

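Expression of 9 libraries, 3 a group, was read from 1 table. Per the labels, mRNA was captured by poly-T and sequenced as 150-base read pairs. The deposited values are FPKM, computed by the authors. The aligner, counter and annotation are not stated. The submitters' processing notes name mm10, a mouse build, while identifiers and positions in the table are those of rat, so gene positions are given as deposited, without a build. Sequences are RefSeq's, in GRCr8.

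FPKM times model length came in whole steps: below 200 fragments, 99.14% to 99.44% of values were whole to within 0.1, which gave fragments per gene. The filter kept 8532 genes that reached 1 FPKM in 3 or more libraries. With limma 3.58.1 in R 4.3.3, group means of log2(FPKM + 1) were fitted over all 9 libraries, with an intensity trend and two-sided tests. Passing means a p under 0.05 after Benjamini-Hochberg adjustment over the tested genes of a comparison. This scale understates fold changes of low genes. Intervals are 95%, from limma's moderated spread.

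The genes, lists and tests were chosen with earlier results of these data known. Named beside the 10 genes are, per list and for each of the first 2 comparisons, up to 3 called genes with the largest change, and the 3 profiles most like those of Hif1a, Egln1 and Bnip3. Car9 matched as Ca9.

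Residuals of same-numbered libraries of NC_A and NC_B had correlations of 0.14, 0.14 and 0.15. For T_A with NC_A the correlations were 0.08, -0.03 and 0.07, and for T_A with NC_B they were 0.06, 0.00461 and 0.00303. Libraries of unlike number were not compared, so a pairing by number was not shown. The main fit has no replicate block, and the value with replicate as a block is given where it ends a call. The 18 other settings were a pseudocount of 0.1, filters of none or of a 5 FPKM mean, scaling by median of ratios or by quantiles, the block, 2 groups alone, each of 9 libraries left out, and, chosen after seeing the data, removal of the length trend without and with the block. The model was also run on simulated libraries, drawn independently and without a length trend. That run cannot show how the model handles the trend or the replicate correlations found here.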

Additional observations from a re-analysis of the deposited data

How the results depend on the processing

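Fold changes of the 9 tested genes were recomputed in 3 comparisons under 18 other settings: 439 of these values kept their direction and their side of the threshold, 20 no longer passed, 5 newly passed and 22 changed sign. With replicate as a block, 5 of the 9 tested genes passed with AGEs instead of 6, since Ndrg1 had an adjusted p of 0.051, and 1213 of all tested genes passed instead of 1277. The block changed no other call of the 9 genes.

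The genes called with AGEs numbered 760 to 1605 when 1 library was left out, and those of the 9 numbered 3 to 7, with 3 without NC_A replicate 1. All genes called numbered 760 without NC_A replicate 1, 837 without NC_A replicate 2, and 806, 837 and 804 without NC_B replicates 1, 2 and 3. With CTSD under AGEs, 2 of the 9 passed with median-of-ratios scaling, quantile normalization, and the length trend removed without or with the block, Hif1a beside P4ha1.

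No value that changed sign had passed. Bnip3l with AGEs, at -0.00462, was at 0.054 with median-of-ratios scaling, 0.0597 with quantile normalization and 0.083 with the length trend removed, without or with the block, and from -0.0692 to 0.0627 with 1 library left out. Ndrg1 with CTSD under AGEs, at 0.02, was at -0.0347, -0.047, -0.0319 and -0.0319 under the same 4 settings, and from -0.0484 to 0.133 with 1 library left out. With 1 library left out, Egln1 with CTSD under AGEs was from -0.0582 to 0.040 and Pdk1 from -0.0687 to 0.0413. Vegfa in CTSD cells with AGEs against BSA cells was at -0.00711 with quantile normalization and from -0.0342 to 0.0452 with 1 library left out. The causes were not tested.

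Of the genes called with AGEs 40.4% were higher, against 58.9% with median-of-ratios scaling, 51.7% with quantile normalization and 59.4% with the length trend removed. With CTSD under AGEs 60.8% were higher, against 49.0%, 52.4% and 49.0%. A planned fit of voom with TMM factors on recovered fragments was not run. Depth limits Adm and Ndrg1, with 35 to 83 fragments a library, and Egln3 most.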
